A study of Homo sapiens with 4 samples.

Results

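Glucocorticoid-responsive genes are those whose transcription is set by the glucocorticoid receptor, and 9 genes were followed here: 8 known targets of the receptor, KLF9, DDIT4, FKBP5, TSC22D3, SGK1, ERRFI1, CEBPD and ZBTB16, and the gene of the receptor itself, NR3C1. They were taken by symbol, and all 9 were found among the 25283 genes of the deposited table. The set was selected on the U1_OE against control difference of KLF9 and DDIT4, which was already known, with the other genes added by function, so the values of all 9 in that comparison are a description and carry no test. RNA was sequenced from cells labelled as neurons, which were grown from the established human embryonic stem cell line H1 by way of neural progenitors and neuronal precursors. Of the 4 libraries, 2 came from cells labelled as wild type with an empty vector (control) and 2 from cells labelled U1_OE, in which U1 snRNA was overexpressed. U1 snRNA pairs with 5′ splice sites as part of a protein-RNA particle. All cells carried a lentiviral vector for 36 hours. The protocol text names the overexpression vector for the control samples as well, so the groups rest on the titles and the genotype labels, and the level of U1 snRNA was not analysed here. All libraries derive from the same line, and the labels do not tell whether replicates were separate cultures, so errors measure the spread between libraries, which may be technical. The labels name no glucocorticoid among the agents given and do not state the steroid content of the media.

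Cortisol and related steroids enter the cell and bind the glucocorticoid receptor, which waits in the cytoplasm in a complex with HSP90 and its co-chaperones. The bound receptor moves to the nucleus, where it binds a palindromic DNA element, often far from the gene it serves, and recruits coactivators. FKBP5 and TSC22D3 are among its best known induced genes in many tissues. KLF9 is induced by glucocorticoids in neurons and other cells, where it represses further genes. Several of these genes also answer to other signals, DDIT4 to low oxygen and amino acid shortage and KLF9 to thyroid hormone and the circadian clock.

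The sequences just before the start sites of KLF9, DDIT4 and FKBP5 are shown because these were the 3 genes of the set with the lowest log2 fold changes. Each line gives the 250 bases before the start in RefSeq (GRCh38.p14), with the letters of any searched motif in capitals. The KLF9 window is chr9:70414658-70414907 on the minus strand, the DDIT4 window chr10:72273674-72273923 on the plus strand, and the FKBP5 window chr6:35688916-35689165 on the minus strand, 1 of 2 windows of that gene, chosen because it held a motif.
KLF9: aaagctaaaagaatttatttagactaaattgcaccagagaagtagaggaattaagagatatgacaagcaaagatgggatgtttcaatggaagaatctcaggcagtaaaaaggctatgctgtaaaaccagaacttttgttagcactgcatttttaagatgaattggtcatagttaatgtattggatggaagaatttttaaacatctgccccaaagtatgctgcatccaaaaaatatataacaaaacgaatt
DDIT4: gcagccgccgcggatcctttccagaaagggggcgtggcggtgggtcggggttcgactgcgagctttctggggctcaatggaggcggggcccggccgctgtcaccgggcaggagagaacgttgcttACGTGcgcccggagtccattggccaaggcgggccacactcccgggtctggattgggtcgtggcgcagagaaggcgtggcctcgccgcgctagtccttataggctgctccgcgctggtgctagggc
FKBP5: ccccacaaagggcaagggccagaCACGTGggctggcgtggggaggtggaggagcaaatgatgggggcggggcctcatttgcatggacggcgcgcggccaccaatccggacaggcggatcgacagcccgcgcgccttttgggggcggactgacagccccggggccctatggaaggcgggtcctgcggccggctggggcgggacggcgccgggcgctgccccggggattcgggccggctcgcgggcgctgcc

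No motif was found in the KLF9 window, which had a GC content of 32.4% and 1 CpG. The DDIT4 window had 68.8% GC and 26 CpG, and its capitals mark ACGTG, the core bound by hypoxia-inducible factors, beginning 125 bases before the start. In the FKBP5 window, of 74.8% GC and 29 CpG, the capitals mark the E-box CACGTG, which holds ACGTG on both strands, beginning 227 bases before the start. In all, 19 windows of 300 bases (250 before to 50 after the start) were found in RefSeq for 7 of the 9 genes, and both strands were searched. The full palindromic element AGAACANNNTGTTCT was in 0 of the 19, against 0.00285% of all 35116 windows. The hexamer AGAACA, 1 arm of it, was in 2 of 19, 1 of FKBP5 and 1 of SGK1, both starting within the first bases of the transcript, against 14.8% of all windows. The E-box was in 1 of 19 against 7.26%, ACGTG in 3 of 19 against 21.4%, the cAMP response element TGACGTCA in 0 against 1.85%, and TGATGNAAT, a form of the amino acid response element, in 0 against 0.991%. The windows of a gene can overlap, and a match is a description of letters only.

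The deposited values are estimated counts per gene, and library totals ran from 16713505 to 19057423. Levels are given as CPM, the estimated counts of a gene scaled by TMM to a common library size. Defining markers of neurons were low: of 10 pan-neuronal markers in the table, 3 reached 1 CPM in every library, and DCX, a microtubule protein of young neurons, was at 0 in 1 library of each group. All 10 mesenchymal markers reached 1 CPM in every library, with sums of 57389.7 and 75202 CPM with the empty vector and 79171 and 69988 CPM with U1 snRNA overexpression. The sums overlapped between the groups, but 8 of the 10 had a positive log2 fold change and 2 a negative one (median 0.42). U1_OE libraries lay above both controls for 60.0% and below both for 0, against 19.7% and 22.1% of all tested genes. At an unadjusted edgeR p under 0.05, 4 of the 10 were higher and 0 lower, where 4.36% and 4.72% of all tested genes were. Pan-neuronal markers summed to 175 and 114.5 CPM with the empty vector and 281 and 352 CPM with U1 snRNA overexpression, most of it TUBB3. Of the astrocyte markers, which summed to 8.58 and 19.7 CPM against 27.3 and 22.6 CPM, AQP4 was at 0 in 1 library of each group. The progenitor markers summed to 44.7 to 57.6 CPM over all libraries, but the 3 tested ones differed in direction. NES was at 24.3 and 30.0 CPM with the empty vector and 39.3 and 44.5 CPM with U1 snRNA overexpression. PAX6 was lower in both U1_OE libraries, at 19.7 and 13.5 CPM against 5.58 and 12.3 CPM. SOX2 was lower in both as well, at 1.14 and 1.23 CPM against 0.0965 and 0.820 CPM. Blood and microglia markers, nearly all CD68, summed to 48.8 and 41.3 CPM against 71.2 and 81.2 CPM, and endothelial markers to 23.5 and 30.0 CPM against 34.6 and 64.5 CPM. The sums of the pan-neuronal, astrocyte, endothelial and blood lists thus differed between the groups in the direction opposite to KLF9 and DDIT4. Each sum was mostly 1 gene, TUBB3, SLC1A3, PECAM1 and CD68 in that order. Within the pan-neuronal and endothelial lists the genes did not all go the same way. Of the 6 tested pan-neuronal markers 4 had a positive log2 fold change and 2 a negative one. The other endothelial markers, CDH5 and VWF, were too low to test and had lower means in U1_OE cells. The part of these lists in the results was not tested. In bulk RNA, fewer cells of a type and less RNA per cell cannot be told apart.

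KLF9, a zinc finger repressor of the Krüppel-like family, had the lowest fold change of the set. Its level was 7.45 and 9.28 CPM in control replicates 1 and 2, and 1.22 and 2.27 CPM in U1_OE replicates 1 and 2. Both U1_OE libraries lay below both control libraries, and U1_OE replicate 1 was the lowest. The mean was 8.37 ± 1.29 CPM in control cells and 1.74 ± 0.738 CPM in U1_OE cells (SD, n = 2), a control level 4.80 times that of U1_OE. The edgeR log2 fold change was -2.25 ± 0.38 (SE), lower than that of all but 0.964% of the 17317 tested genes. Behind these levels stood 127 and 168 estimated counts in control cells and 19.8 and 43.2 in U1_OE cells, the lowest depth among the tested genes of the set. KLF9 spans 70384597 to 70414624 on chromosome 9, minus strand (GRCh38, GENCODE v29), and no other annotated gene overlaps it.

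DDIT4, also called REDD1, is a small stress-induced protein that restrains the growth kinase complex mTORC1 through TSC2. It stood at 101 and 119 CPM with the empty vector and 39.8 and 36.9 CPM with U1 snRNA overexpression. The groups did not overlap, and the 2 U1_OE libraries differed from each other by 1.08-fold. Means were 110.2 ± 12.6 and 38.4 ± 2.04 CPM (SD, n = 2), a ratio of control to U1_OE of 2.87, and the log2 fold change was -1.52 ± 0.15. The gene, 2.117 kb long on chromosome 10 (72273920 to 72276036, plus strand), is overlapped by DDIT4-AS1 on the minus strand. DDIT4-AS1 was at 3.13 and 1.49 CPM with the empty vector and 0.828 and 0.577 CPM with U1 snRNA overexpression, and since no strand-marking step is stated, reads of the pair cannot be told apart. Against the level of DDIT4 itself the antisense values were small. DDIT4-AS1 lies wholly within DDIT4, so these values do not give the antisense share of the reads counted for DDIT4.

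FKBP5, a co-chaperone that lowers the affinity of the receptor for its hormone and closes a feedback loop, was at 35.9 and 46.1 CPM with the empty vector and 26.7 and 18.4 CPM with U1 snRNA overexpression. Its groups did not overlap, with means of 41.0 ± 7.26 and 22.6 ± 5.86 CPM (SD, n = 2) and a log2 fold change of -0.86 ± 0.24. The gene spans 155 kb on chromosome 6 (35573585 to 35728583, minus strand). TSC22D3, which encodes the anti-inflammatory leucine zipper protein GILZ, was at 67.6 and 65.7 CPM with the empty vector and 50.4 and 43.0 CPM with U1 snRNA overexpression. Here too both U1_OE libraries were lower, by less: the log2 fold change was -0.51 ± 0.14, from means of 66.6 ± 1.30 and 46.7 ± 5.25 CPM (SD, n = 2). TSC22D3 lies on chromosome X (107713221 to 107777342, minus strand) and has 17 annotated transcripts, which a value per gene does not separate.

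SGK1, a kinase that promotes sodium transport and cell survival, had 161 and 226 CPM with the empty vector and 113 and 119 CPM with U1 snRNA overexpression. Control replicate 2 was the highest and the U1_OE libraries were close to each other. Means of 193 ± 46.1 and 116 ± 4.63 CPM (SD, n = 2) gave a log2 fold change of -0.74 ± 0.20, a value that became -0.47 when control replicate 2 was left out and -0.94 when control replicate 1 was. SGK1 lies on chromosome 6 (134169246 to 134318112, minus strand) and has 30 annotated transcripts. KLF9, DDIT4, FKBP5, TSC22D3 and SGK1 were thus the 5 of 8 tested genes whose U1_OE libraries both lay below both control libraries, where 22.1% of all tested genes did so. Because the set was chosen with this comparison in view, nothing is read from that share.

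The other 3 tested genes overlapped between the groups. CEBPD, a leucine zipper factor of the inflammatory and adipogenic programmes, was at 79.6 and 49.8 CPM with the empty vector and 43.2 and 51.2 CPM with U1 snRNA overexpression. Only control replicate 1 stood apart, and the log2 fold change of -0.45 ± 0.26 shrank to -0.05 without it and was -0.75 without control replicate 2. CEBPD has a single annotated transcript, on chromosome 8 (47736909 to 47739086, minus strand).

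ERRFI1, an inhibitor of the EGF receptor family also known as MIG6, was at 116 and 109 CPM with the empty vector and at 54.6 and 149.5 CPM in U1_OE replicates 1 and 2. The U1_OE libraries lay on either side of the controls, 2.74-fold apart, while the controls differed by 1.06-fold. Its log2 fold change of -0.14 ± 0.47 became 0.42 without U1_OE replicate 1 and -1.05 without U1_OE replicate 2, so it had no stable direction. ERRFI1 lies on chromosome 1 (8004404 to 8026308, minus strand).

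NR3C1, the receptor, was at 22.7 and 24.4 CPM with the empty vector and 31.8 and 22.8 CPM with U1 snRNA overexpression. U1_OE replicate 2 lay between the controls, and means of 23.5 ± 1.20 and 27.3 ± 6.42 CPM (SD, n = 2) gave a log2 fold change of 0.21 ± 0.21, which was -0.037 without U1_OE replicate 1 and 0.43 without U1_OE replicate 2. Neither U1_OE library was thus below both controls for the receptor transcript. NR3C1 lies on chromosome 5 (143277931 to 143435512, minus strand). ZBTB16, a zinc finger factor strongly induced by glucocorticoids in many cell types, was close to absent, at 0.0147 and 0.0737 CPM with the empty vector and 0.0868 and 0.217 CPM with U1 snRNA overexpression. Those are at most 4.13 estimated counts in a library, below the filter on low counts, so ZBTB16 was the 1 gene of the 9 not tested and no fold is given for it.

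**Figure D1:**
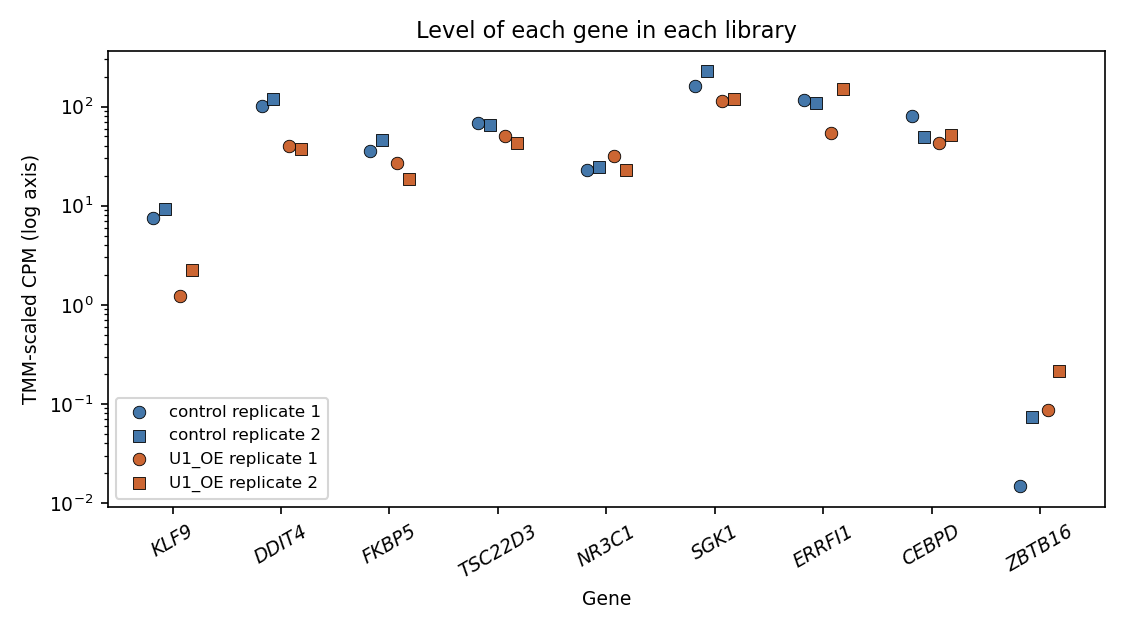
Level of each of the 9 genes in each library, as TMM-scaled CPM on a log axis; each point is 1 library, blue for control and orange for U1_OE, circles for replicate 1 and squares for replicate 2. For KLF9, DDIT4, FKBP5, TSC22D3 and SGK1 both orange points lie below both blue points, while the orange points of ERRFI1 lie on either side of the blue ones at 54.6 and 149.5 CPM.

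Levels were also compared per length of exonic sequence. Averaged over the 4 libraries, DDIT4 was at 36.1 CPM per kb of annotated exons, followed by CEBPD at 25.7, ERRFI1 at 25.6, SGK1 at 15.5 and TSC22D3 at 11.9 CPM per kb. FKBP5 at 2.99 and NR3C1 at 2.77 CPM per kb came next, then KLF9 at 0.977 and ZBTB16 at 0.0154 CPM per kb. Over the 4 libraries the ranges of neighbours overlapped from DDIT4 down to TSC22D3 and again between FKBP5 and NR3C1, so the order within these groups is not settled. The lowest TSC22D3 value, 9.02 CPM per kb, lay above the highest of FKBP5, 4.34, and the highest KLF9 value, 1.79, lay below the lowest of NR3C1, 2.47. That KLF9 value, from control replicate 2, was above the lowest of FKBP5, 1.73 CPM per kb in U1_OE replicate 2. The ranges of KLF9 and FKBP5 thus overlapped over the 4 libraries. The place of DDIT4 rested on the control libraries, at 49.2 and 57.9 CPM per kb, since in U1_OE libraries it was at 19.3 and 17.9 CPM per kb, below CEBPD at 19.8 and 23.5 CPM per kb. In control libraries alone KLF9 was at 1.44 and 1.79 CPM per kb, below the 3.37 and 4.34 CPM per kb of FKBP5. In U1_OE libraries KLF9 was at 0.236 and 0.438 CPM per kb.

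With edgeR (quasi-likelihood, p-values adjusted by Benjamini-Hochberg), 0 of the 8 tested genes were called in either direction, and 0 of all 17317 tested genes were (0%). At an unadjusted edgeR p under 0.05, 5 of the 8 were lower, where 4.72% of all tested genes were, and 0 were higher, where 4.36% were. DESeq2 called 2 of the 8 lower, KLF9 and DDIT4, where it called 0.47% of 17440 genes lower, and 0 of the 8 higher, where it called 0.614% higher. limma-voom called 0 of the 8 and 0% of all. Since these genes were chosen with this contrast known, the counts describe the set and support nothing. Without each library in turn, the DESeq2 log2 fold change of DDIT4 was -1.62 to -1.39 and that of KLF9 -2.76 to -1.87. DDIT4 kept its DESeq2 call in each of these fits, and KLF9 kept it only without U1_OE replicate 2.

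**Figure D2:**
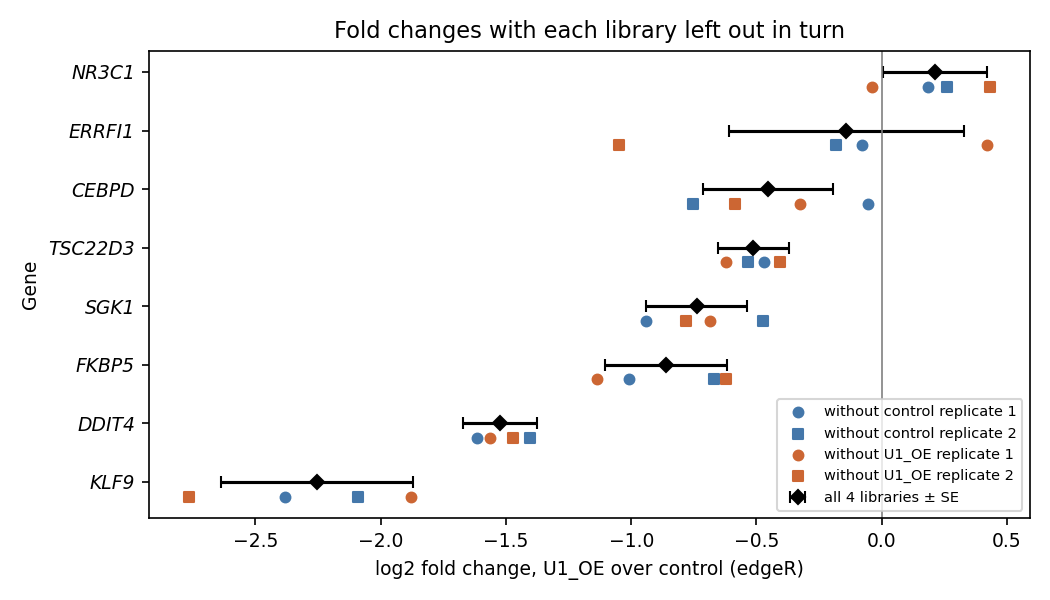
edgeR log2 fold change of U1_OE over control for the 8 tested genes; black diamonds are the fit of all 4 libraries with its standard error, and coloured points are fits with 1 library left out. With a library left out, DDIT4 runs from -1.61 to -1.40 around its value of -1.52, KLF9 from -2.76 to -1.88 around -2.25, and ERRFI1 from -1.05 to 0.42.

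The median log2 fold change of the 8 tested genes was -0.63, against -0.01 for all tested genes, and 7 of the 8 were negative, where 50.7% of all tested genes were. Levels of the tested genes of the set ran from 1.22 CPM, for KLF9 in U1_OE replicate 1, to 226 CPM, for SGK1 in control replicate 2.

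**Figure D3:**
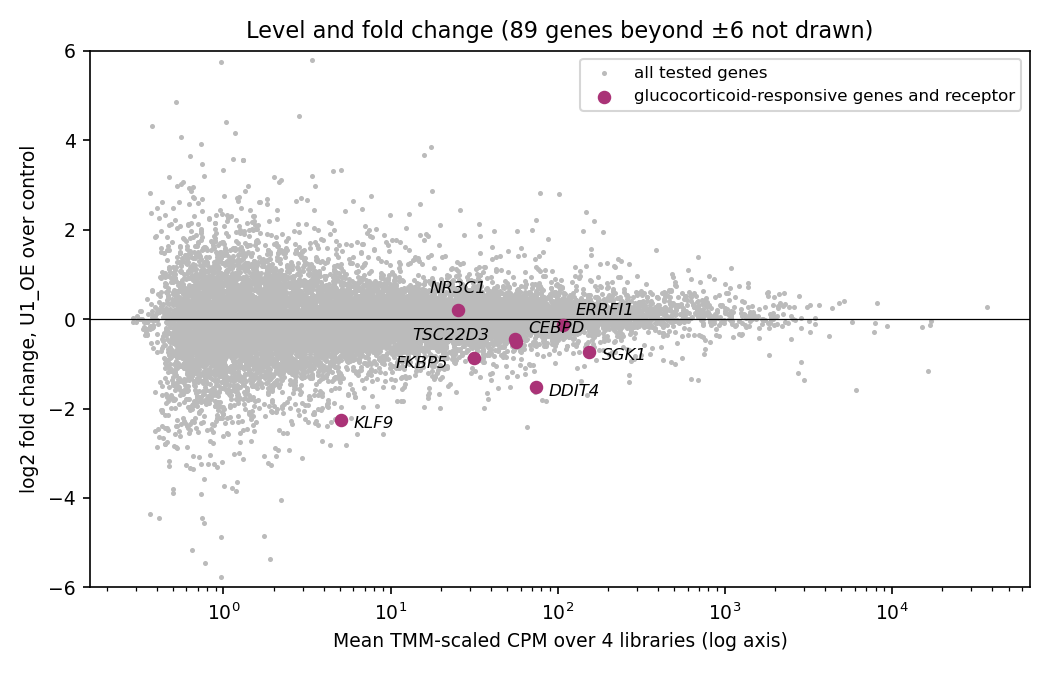
Mean level (TMM-scaled CPM over 4 libraries, log axis) against log2 fold change of U1_OE over control for all tested genes in grey and the 8 tested genes of the set in purple; 89 genes beyond 6 in either direction are not drawn. KLF9 at -2.25 and DDIT4 at -1.52 lie below most grey points of similar level, and NR3C1 and ERRFI1 lie inside the cloud.

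A wider list of 28 glucocorticoid-induced genes was mixed in direction. Of its 25 tested genes 14 were negative and 11 positive, with a median log2 fold change of -0.21 against -0.01 for all genes, and the median was -0.05 without control replicate 2 and -0.06 without U1_OE replicate 2. edgeR called 0. At an unadjusted p under 0.05 it had 3 of the 25 lower and 1 higher, where 4.72% and 4.36% of all tested genes were. DESeq2 called 0 lower and 1 higher, where it called 0.47% of all genes lower and 0.614% higher. limma-voom called 0. The U1_OE libraries lay below both controls for 28.0% of these genes and above both for 20.0%, close to the 22.1% and 19.7% of all tested genes. The metallothionein gene MT1X, which glucocorticoids and metals induce, was at 9.77 and 24.0 CPM in control cells and 97.6 and 35.9 CPM in U1_OE cells, and it was the gene DESeq2 called higher (adjusted p = 0.0179), with an edgeR log2 fold change of 1.98 ± 0.64. Its neighbour in function MT2A was at 448 and 225 CPM against 520.4 and 779 CPM, with both U1_OE libraries above both controls. Metallothioneins have near-identical copies, so their reads can be shared. TXNIP, an inhibitor of thioredoxin and of glucose uptake, was at 47.0 and 74.8 CPM against 26.7 and 41.1 CPM, a log2 fold change of -0.84 ± 0.32. FAM107A, an actin-binding stress gene of the brain, and FOXO3, a factor of starvation and stress, were the other 2 lower genes at an unadjusted p under 0.05 and are named after their values were seen. FAM107A had a log2 fold change of -2.16 ± 0.52 from levels of 1.98 and 2.88 CPM in control cells and 0.581 and 0.547 CPM in U1_OE cells, and FOXO3 had -0.47 ± 0.16. DUSP1, a phosphatase of stress kinases induced early by the receptor, had 37.4 and 20.0 CPM in control cells and 37.7 and 40.9 CPM in U1_OE cells, and PER1, a clock gene with a well known receptor element, had 6.64 and 8.27 CPM against 6.52 and 3.37 CPM.

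A list of genes that the receptor represses was read as well. Of 15 listed, 11 were tested, and 9 of them were negative and 2 positive, with a median of -0.50. The median became -0.93 without U1_OE replicate 2 and -0.32 without control replicate 1. Without control replicate 1, 6 were negative and 5 positive, and without U1_OE replicate 1, 7 were negative and 4 positive. The activity of the receptor was not tested. edgeR, DESeq2 and limma-voom called 0. At an unadjusted edgeR p under 0.05, 3 of the 11 were lower and 1 higher, where 4.72% and 4.36% of all tested genes were. PTGS2, the inducible cyclooxygenase, had 14.9 and 8.21 CPM in control cells and 4.54 and 6.22 CPM in U1_OE cells, with a log2 fold change of -1.10 ± 0.37. IL11, a cytokine of the IL6 family, had 2.23 and 2.63 CPM against 5.12 and 6.63 CPM, at 1.27 ± 0.31, and the collagenase gene MMP1 had 5.78 and 1.22 CPM against 9.24 and 10.5 CPM. U1_OE libraries were below both controls for 36.4% of the 11 and above both for 18.2%, against 22.1% and 19.7% of all tested genes.

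The machinery of the receptor showed small differences. Of 12 tested chaperones and co-chaperones 9 were positive and 3 negative, where 50.7% of all tested genes were negative. Their median log2 fold change was 0.15. U1_OE libraries lay above both controls for 41.7% and below both for 8.33%, against 19.7% and 22.1% of all tested genes. Leaving out control replicate 1 gave a median of 0.23, and leaving out control replicate 2 gave 0.05. edgeR, DESeq2 and limma-voom called 0. At an unadjusted edgeR p under 0.05, 2 of the 12 were higher, where 4.36% of all tested genes were. STIP1, which bridges HSP70 and HSP90, had 113 and 106 CPM in control cells and 139 and 155 CPM in U1_OE cells, at 0.42 ± 0.13. HSPA1A and DNAJB1, heat shock proteins of the HSP70 cycle, had 0.46 ± 0.21 and 0.34 ± 0.13. HSPA1A has a near-identical copy. FKBP4, the paralog of FKBP5 that favours hormone binding, had 36.7 and 33.8 CPM against 34.3 and 39.2 CPM, with overlapping groups, so its values did not follow those of FKBP5. Of 11 tested coregulators 8 were positive, with a median of 0.08 that was -0.03 without control replicate 1 and 0.13 without U1_OE replicate 2. For the coregulators, U1_OE libraries lay above both controls for 36.4% and below both for 9.09%. Of them 0 were called by edgeR, DESeq2 or limma-voom. At an unadjusted edgeR p under 0.05, 1 of the 11 was lower, where 4.72% of all tested genes were. That gene, NRIP1, a corepressor of nuclear receptors, had 7.65 and 10.0 CPM against 5.26 and 6.04 CPM, at -0.65 ± 0.25. MED14, a Mediator subunit, had 0.30 ± 0.20, and NCOR1, a corepressor, 0.14 ± 0.23.

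Of the genes that set the supply of active steroid, the pair that interconverts cortisol and cortisone was near the limit of measurement. HSD11B1, which regenerates cortisol from cortisone, had 0.243 and 0.0889 CPM in control cells and 0 and 0.148 CPM in U1_OE cells, and HSD11B2, which inactivates cortisol, had 0.396 and 0.816 CPM against 0.0667 and 0.0567 CPM. Neither passed the filter on low counts. H6PD, which feeds HSD11B1 with its cofactor, had 28.2 and 38.0 CPM against 34.5 and 28.3 CPM. The mineralocorticoid receptor NR3C2, which binds cortisol as well, had 1.08 and 0.616 CPM against 0.198 and 0.320 CPM. Of the 4 tested genes of this list 3 were negative and 1 positive, with a median of -0.44. That median was -1.38 without U1_OE replicate 1 and -0.02 with only genes averaging 50 counts or more. edgeR, DESeq2 and limma-voom called 0 of the 4, where DESeq2 called 0.47% of all genes lower and 0.614% higher. At an unadjusted edgeR p under 0.05 there were 0, where 4.72% of all tested genes were lower and 4.36% higher.

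Around DDIT4, the genes of mTORC1 and its regulators were mixed in direction. Of 15 tested, 9 were negative and 6 positive, with a median of -0.05 that was 0.04 without control replicate 2. U1_OE libraries lay below both controls for 26.7% and above both for 13.3%, against 22.1% and 19.7% of all tested genes. edgeR, DESeq2 and limma-voom called 0. At an unadjusted edgeR p under 0.05, 1 of the 15 was higher, where 4.36% of all tested genes were. That was EIF4EBP1, a translation inhibitor that mTORC1 phosphorylates, with 88.6 and 75.3 CPM in control cells and 118 and 113 CPM in U1_OE cells, at 0.50 ± 0.14. The lowest log2 fold change of the list, -1.11 ± 0.54, was that of DEPTOR, an inhibitor of mTOR, at 1.75 and 3.30 CPM in control cells and 0.94 and 1.44 CPM in U1_OE cells, and it is named after its values were seen. MLST8, a subunit of the complex, had -0.28 ± 0.16, and SESN2, another stress-induced inhibitor, had 0.26 ± 0.23. TSC2, through which DDIT4 acts, had 45.6 and 53.9 CPM against 63.8 and 47.9 CPM. Among 6 tested partners of SGK1 and ERRFI1, edgeR, DESeq2 and limma-voom called 0. At an unadjusted edgeR p under 0.05, 1 of the 6 was higher, where 4.36% of all tested genes were. That was NDRG1, a substrate of SGK1 that is also induced by low oxygen, with 9.98 and 9.42 CPM against 16.0 and 22.7 CPM, at 1.00 ± 0.23. ERBB2, a receptor that ERRFI1 inhibits, had 43.4 and 49.6 CPM against 45.8 and 35.5 CPM.

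The other known inducers of DDIT4 were read from lists of hypoxia and ATF4 genes. Of 10 tested hypoxia-induced genes 6 were positive, with a median of 0.18 that turned to -0.16 without U1_OE replicate 2. It was 0.32 and 0.06 without control replicates 1 and 2, and 0.03 without U1_OE replicate 1. U1_OE libraries lay above both controls for 40.0% and below both for 20.0%, against 19.7% and 22.1% of all tested genes. edgeR and limma-voom called 0. At an unadjusted edgeR p under 0.05, 2 of the 10 were higher, where 4.36% of all tested genes were. DESeq2 called 1 higher, where it called 0.614% of all genes higher. The gene DESeq2 called was LDHA, a lactate dehydrogenase, at 732 and 626 CPM in control cells and 1125 and 1854 CPM in U1_OE cells. ADM, a vasoactive peptide, had 312 and 214 CPM against 110 and 208 CPM. VEGFA had 37.8 and 30.8 CPM against 28.5 and 34.8 CPM, with overlapping groups. Of 11 tested ATF4 pathway genes, which answer to amino acid shortage and stress of the endoplasmic reticulum, 8 were negative, with a median of -0.37. That median became -0.17 when control replicate 1 was left out, -0.83 when control replicate 2 was, and -0.65 when U1_OE replicate 2 was. U1_OE libraries lay below both controls for 6 of the 11, or 54.5% against 22.1% of all tested genes, and above both for 0 against 19.7%. edgeR, DESeq2 and limma-voom called 0. At an unadjusted edgeR p under 0.05, 3 of the 11 were lower, where 4.72% of all tested genes were. ASNS, asparagine synthetase, had 32.5 and 24.9 CPM in control cells and 10.7 and 15.6 CPM in U1_OE cells, at -1.12 ± 0.26. With ASNS, the lower genes at that threshold were TRIB3, at -1.10 ± 0.37, and DDIT3, at -0.60 ± 0.22, both named after their values were seen. SLC7A11, the cystine transporter, had a log2 fold change of -1.38 ± 0.59 and an unadjusted edgeR p of 0.068, so it was not among them. ATF4 itself had 252 and 280.3 CPM against 269 and 285 CPM, and ATF3, a stress factor downstream of it, had 8.96 and 2.10 CPM against 19.5 and 7.11 CPM. The list as a whole thus held genes lower together with DDIT4 and others that were not, and its part in the level of DDIT4 was not tested.

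Among the paralogs of the set, 14 of 20 tested genes were negative and 6 positive, with a median of -0.06. Without U1_OE replicate 2 the median was -0.26, with 17 negative and 3 positive, and without control replicate 1 it was -0.10. U1_OE libraries lay below both controls for 40.0% and above both for 0, against 22.1% and 19.7% of all tested genes. edgeR, DESeq2 and limma-voom called 0. At an unadjusted edgeR p under 0.05, 3 of the 20 were lower, where 4.72% of all tested genes were. KLF13, a repressor of the same subgroup as KLF9, had 26.6 and 29.4 CPM in control cells and 16.9 and 13.7 CPM in U1_OE cells, at -0.87 ± 0.18. KLF10, a TGF-beta-induced repressor, had 42.6 and 54.1 CPM against 26.4 and 29.1 CPM, at -0.80 ± 0.17. The third was TSC22D1, with 117 and 112 CPM against 85.9 and 91.9 CPM, at -0.36 ± 0.13, named after its values were seen. SGK3 had 3.37 and 7.14 CPM against 2.53 and 4.23 CPM. Not all relatives were lower: KLF4 had 12.5 and 12.3 CPM against 10.3 and 14.4 CPM, and KLF2 had 55.2 and 52.2 CPM against 55.0 and 67.5 CPM.

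KLF9 is also an output of the circadian clock, and of 14 tested clock genes 9 were positive and 5 negative, with a median of 0.07 that was -0.35 without U1_OE replicate 1, -0.03 without control replicate 1 and 0.004 without U1_OE replicate 2. U1_OE libraries lay below both controls for 21.4% and above both for 0, against 22.1% and 19.7% of all tested genes. edgeR and limma-voom called 0. At an unadjusted edgeR p under 0.05, 2 of the 14 were lower, where 4.72% of all tested genes were. DESeq2 called 1 lower, where it called 0.47% of all genes lower. DBP, a clock output factor, was at 5.04 and 10.1 CPM in control cells and 0.923 and 1.20 CPM in U1_OE cells, at -2.82 ± 0.47. BHLHE41, a repressor of the clock, was at 15.2 and 23.0 CPM against 7.76 and 11.2 CPM, at -1.01 ± 0.30, while NR1D1 and TEF, which share clock control with DBP, overlapped between the groups.

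**Figure D4:**
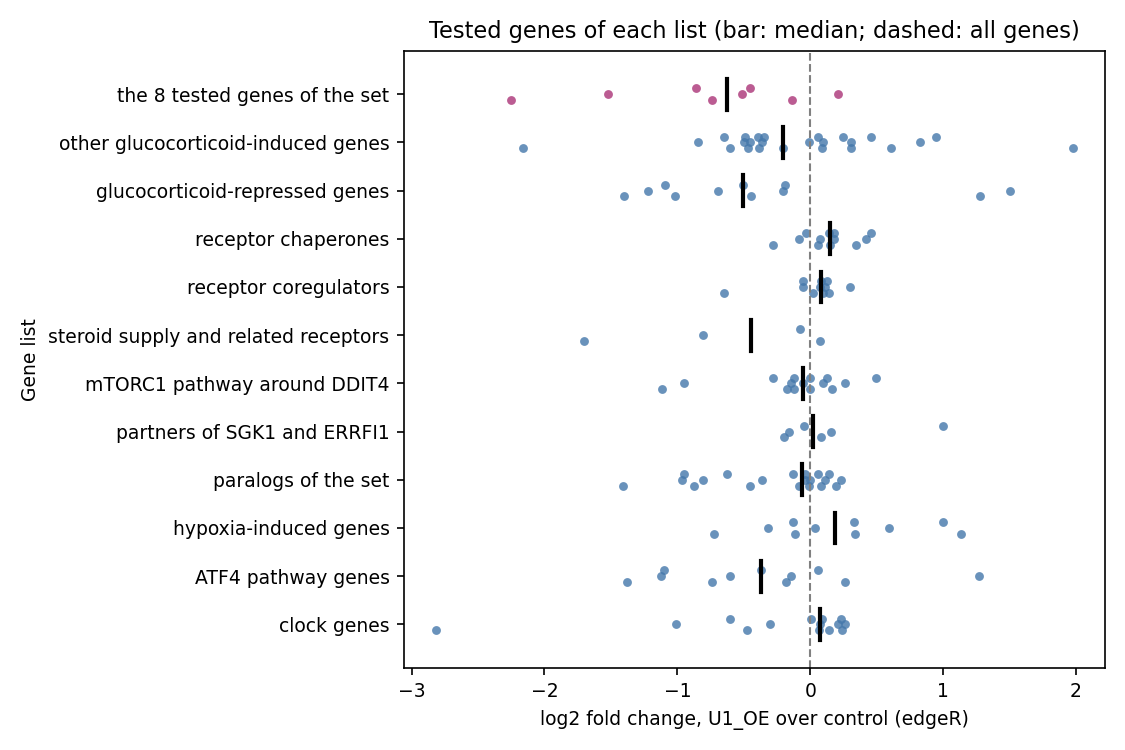
edgeR log2 fold change of U1_OE over control for every tested gene of each list, 1 point per gene; black bars are medians of the list and the dashed line is the median of all tested genes. The median of the set is -0.63, that of the wider list of glucocorticoid-induced genes -0.21, that of ATF4 pathway genes -0.37 and that of receptor chaperones 0.15.

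Among 9967 candidates, the genes whose profile over the 4 libraries was most like that of KLF9 were KLRC4, KLRK1, CXCL14, PDE6B and SMIM1. Candidates were tested genes averaging 50 counts or more whose symbols passed a filter against placeholder, antisense, readthrough and pseudogene names. That filter also left out coding genes with a hyphen or a final P, with or without digits. FKBP5 and DBP were among those left out, so they could not be named. Likeness was the root mean square distance between log2 CPM profiles centred on each gene's mean, and it ran from 0.16 for KLRC4 to 0.30 for SMIM1. KLRC4 and KLRK1 are neighbouring receptor genes of lymphoid cells that share a readthrough transcript, so they are not separate instances. KLRK1 was at 13.8 and 17.3 CPM in control cells and 1.90 and 3.24 CPM in U1_OE cells. For DDIT4 the nearest were KLHL41, TENM2, ADA, MAN1C1 and RERG, with distances of 0.08 to 0.17. KLHL41, a Kelch protein of muscle, was at 8.88 and 11.7 CPM against 3.54 and 3.64 CPM, and MAN1C1, a Golgi mannosidase, at 78.9 and 74.5 CPM against 30.7 and 22.5 CPM. These profiles rest on 4 libraries that all genes share, and the genes named are the closest of many candidates.

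**Figure D5:**
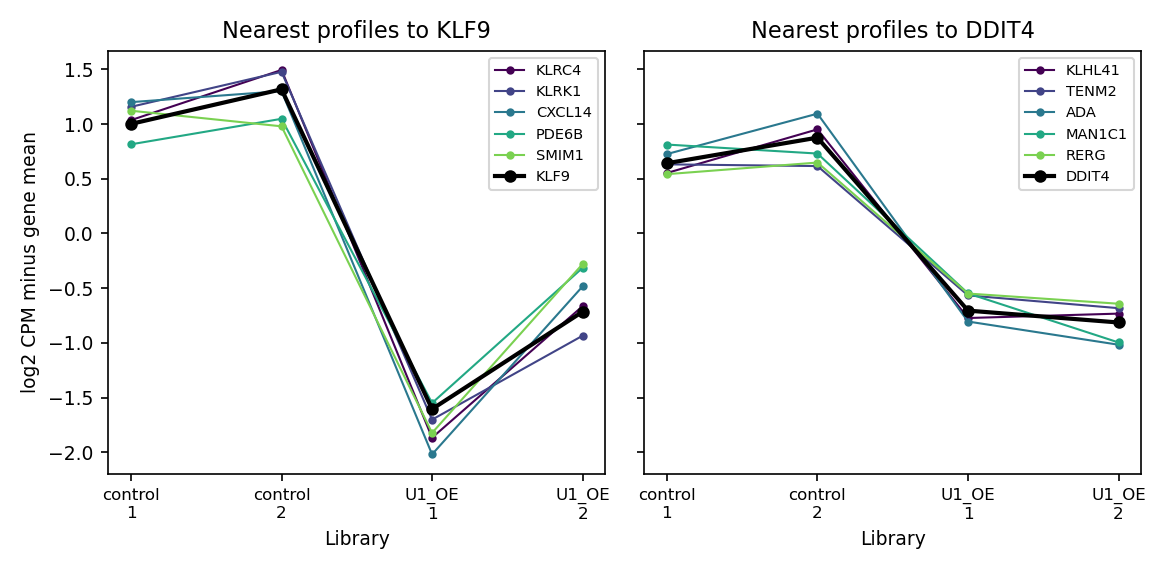
Profiles over the 4 libraries of KLF9 (left) and DDIT4 (right), in black, with the 5 nearest candidate genes of each in colour. The vertical axis is log2 CPM minus the mean of the gene. KLF9 and its neighbours are lowest in U1_OE replicate 1, while for DDIT4 and each of its neighbours both U1_OE libraries lie below both controls; the U1_OE values are 39.8 and 36.9 CPM for DDIT4 and 30.7 and 22.5 CPM for MAN1C1.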

How the data were processed

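The authors deposited 1 table of estimated counts per gene, not normalised, for 4 libraries and 25283 genes. Per the submitters' processing notes, Trim Galore, STAR, featureCounts and DESeq2 were used with the hg38 build, and their versions and roles are not given in the sources used here. Most values are fractional, and the step that made them so is not given there either. The values were rounded and tested with edgeR 4.0.16 (R 4.3.3): filterByExpr left 17317 genes, libraries were scaled by TMM, and the groups were compared by glmQLFTest, p-values being adjusted by Benjamini-Hochberg and read at 0.05. Standard errors were worked back from the F statistic. CPM are the deposited values over TMM-scaled library sizes. The scaling (RLE or none), the filter (none, or a mean count of 50 or more), the tool (DESeq2 1.42.0, limma-voom 3.58.1), a replicate block and the leaving out of each library were tried as alternatives. Same-numbered libraries had a correlation of deviations of -0.18.

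The set and all lists were chosen with earlier results of these data known. Named genes were the set and the 3 largest absolute log2 fold changes per list among tested genes averaging 50 counts or more. The 5 nearest profiles to KLF9 and to DDIT4 among the candidates left by the filter on symbols were named as well. Not every gene these rules name is described. Others were chosen after their values were seen, or for their role. Positions and exon lengths come from GENCODE v29 (GRCh38), and BMAL1 was matched through a RefSeq synonym. The precision of low genes is limited by totals of 16713505 to 19057423 counts, that of others by 2 libraries per group.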

Additional observations from a re-analysis of the deposited data

How the results depend on the processing

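edgeR called 0 genes in all, 0 to 0 with each library left out, 0 with the replicate block and 0 with the other alternatives except DESeq2, which called 189, 107 higher and 82 lower. Same-numbered libraries are not stated to share an origin. Their deviations had a correlation of -0.18, and a crossed replicate block, added after the data were seen, also called 0. Of 8 tested genes of the set, 6 had the same sign in all 11 alternatives. The sign changed for NR3C1, to -0.037 without U1_OE replicate 1 (0.43 without U1_OE replicate 2), and for ERRFI1, to 0.42 without U1_OE replicate 1. Of 88 values of these genes under alternatives, 10 moved by more than the standard error, and all 10 had a library left out. With scaling, filter, tool or block changed, KLF9 ran from -2.30 to -2.24 and DDIT4 from -1.56 to -1.51. With the replicate block they were -2.30 and -1.52. Of 132 medians of the set and the lists, 15 moved by more than their standard error over genes, 12 of them with a library left out. A group left with 1 library borrowed its spread from the other. Of the genes described, ZBTB16, HSD11B1, HSD11B2, PDK4, RASD1 and the markers DCX, AQP4, CDH5 and VWF had too few counts to pass the filter.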

Other observations

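Within the set, profiles over the 4 libraries fell close together for FKBP5, TSC22D3 and SGK1, with root mean square distances between centred log2 CPM profiles of 0.25 for FKBP5 and TSC22D3, 0.24 for FKBP5 and SGK1 and 0.24 for TSC22D3 and SGK1. Other pairs were not far behind, with 0.29 for TSC22D3 and CEBPD and 0.36 for DDIT4 and FKBP5, so no separate cluster is claimed. Profiles were centred but not scaled, so genes that vary little lie close to each other. KLF9 was 0.54 from DDIT4 and 0.88 from FKBP5. U1_OE replicate 2 was the lowest library for FKBP5, TSC22D3 and DDIT4, and U1_OE replicate 1 for KLF9, SGK1, ERRFI1 and CEBPD. Which U1_OE library was the lowest thus differed between these genes. The margin was small for DDIT4, at 39.8 and 36.9 CPM in U1_OE replicates 1 and 2, and for SGK1, at 113 and 119 CPM.

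Some known targets were too low to test. PDK4, a kinase that restrains pyruvate oxidation, had 0.0883 and 0.590 CPM in control and 0.129 and 0.138 CPM in U1_OE libraries. RASD1, a small G protein induced by dexamethasone, had 0.399 and 0.601 CPM against 0.147 and 0.374 CPM. KLF15, which acts with the receptor in muscle and liver, was not among the genes analysed here.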
